A study of Mus musculus with 12 samples.

Results

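Blood and lymph vessels of the heart were followed through 36 genes that mark endothelial cells, chosen by symbol from the counted gene table: 21 capillary and general endothelial genes, 6 arterial genes, 7 lymphatic genes and 2 endocardial genes. The table held 78317 gene IDs, and all 36 genes were among the 17130 that passed the filter on low counts. RNA had been sequenced in bulk from snap-frozen heart ventricle of C57BL/6J mice, 6 of them offspring of males that had received a cardiac cryoinjury (a freezing injury) at P1, postnatal day 1, and 6 sired by males without injury. No injury was given to the offspring, and the labels call the first group "paternal Injured P0". Hearts were collected at 3 wpp per the labels, which also call the animals adult; both statements are given as they stand. The injured-sire group held 3 males and 3 females and the uninjured-sire group 4 males and 2 females, with no statement of which library is which, and no sire or litter is named, so a p-value reflects only how far these hearts varied, and shared litters could not be accounted for. The comparison asks whether cardiac injury of a newborn male is followed by altered gene expression in the ventricles of the next generation.

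Endothelial cells line every vessel, and in the heart capillaries run beside nearly every muscle fibre. VEGF receptors and the angiopoietin receptor TIE2 keep these cells alive and quiet, while Notch signalling through the ligand DLL4, with SOX17 and ephrin-B2, sets arterial identity. Lymphatic identity depends on the transcription factor PROX1 and the receptor VEGFR3, and the endocardium, the inner lining of the chambers, is marked during development by NFATC1.

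Libraries held 30537315 to 42090257 counts. Injured-sire replicate 16 was left out of the comparison because the labels report it as an outlier in the submitters' principal component analysis, so 5 injured-sire libraries were set against 6 uninjured-sire libraries. Its values are given apart, for some genes and sums only, and injured-sire values otherwise leave it out. In principal components computed here, it stood at 26.5 on the first, among uninjured-sire replicates 19, 20, 22 and 23 (19.6 to 32.6). On the second, injured-sire replicate 12, which was kept, stood at 36.3, and all other libraries at -15.9 to 6.86. Levels are CPM, counts scaled to 1000000 per library with TMM factors. Genes of airway and lung cells, which heart ventricle should lack, summed to 24.4 to 342 CPM in the 5 injured-sire libraries and to 0.403 CPM in replicate 16, against 214 and 164 CPM in uninjured-sire replicates 18 and 21 and 0.191 to 2.56 CPM in the other four. Where the airway and lung sum was high, nearly all of it was Scgb1a1 and Scgb3a2. Sftpc, Sftpb and Sftpa1 of the same list reached at most 0.497, 0.419 and 2.36 CPM in any library, in that order. Fat markers summed to 134 to 448 CPM in injured-sire libraries and 20.7 to 339 CPM in uninjured-sire libraries. The heart muscle markers were abundant in every library, with Myh6, the cardiac myosin heavy chain, at 34261 to 42962 CPM in injured-sire and 31699 to 38115 CPM in uninjured-sire libraries.

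None of the 36 genes passed an adjusted p of 0.05 in edgeR's quasi-likelihood test, where 18 of 17130 genes did (0.105% of genes tested; 9 higher and 9 lower, against 17 and 8 with no scaling factor and 7 and 12 with upper-quartile factors). At an unadjusted p below 0.05, 4 were higher (Rgcc, Vwf, Sox17 and Efnb2) and 1 was lower (Dll4), beside 4.28% and 4.68% of all genes tested. By the DESeq2 Wald test 2 of the 36 passed, Rgcc and Vwf, as did 134 of 14804 genes (0.905%), and the same pair passed in edgeR with no filter on low counts (0.619% of 38125 genes). At an adjusted p below 0.1 in edgeR, Rgcc alone passed, beside 0.286% of genes. Rgcc and Vwf were also the 2 whose libraries did not overlap between the groups, both higher, a pattern found in 1.05% of all genes tested (0.426% higher and 0.625% lower). Of the 36 members, 22 lay within 0.1 of zero on the log2 scale, as did 8071 of the 17130 genes. The 36 log2 fold changes ran from -0.42 (Ccl21a) to 0.50 (Rgcc). The median log2 fold change was 0.0091 over the 36 genes and 0.00019 over all genes, with 19 of the 36 higher and 17 lower. In bulk RNA, fewer cells of a type and less RNA per cell cannot be told apart, in any of the values that follow.

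**Figure D1:**
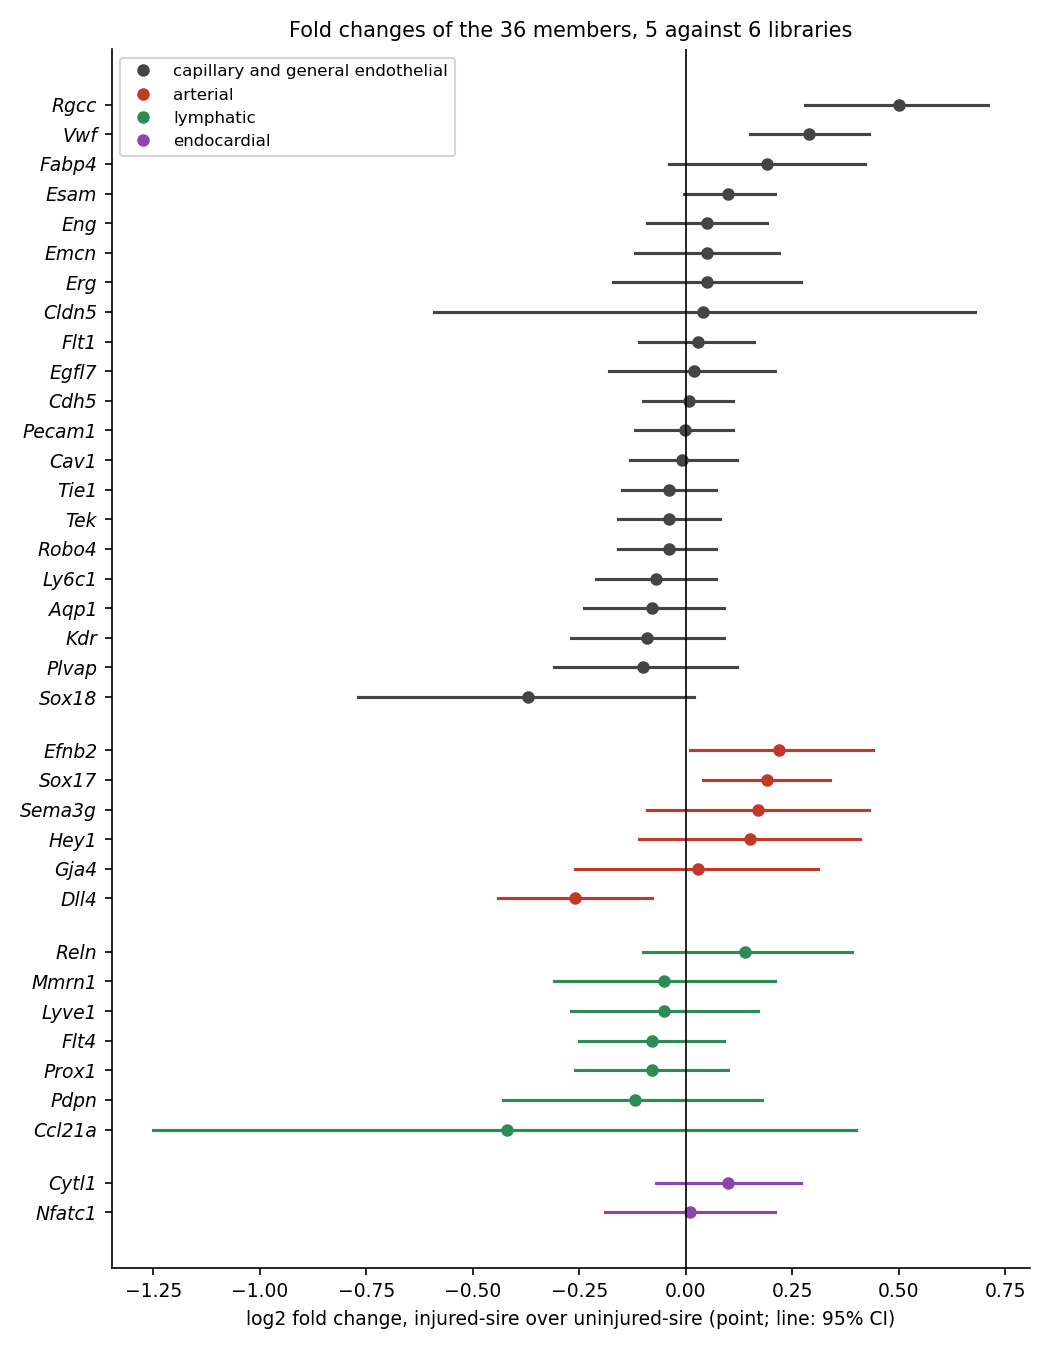
Log2 fold change of each of the 36 genes, injured sire over uninjured sire, with its 95% confidence interval (edgeR, 5 against 6 libraries), by group. Rgcc at 0.50 and Vwf at 0.29 have intervals wholly above zero, as do Sox17 and Efnb2 more narrowly, Dll4 lies left at -0.26, and 22 of the 36 points lie within 0.1 of zero.

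Promoters are shown for 3 genes: Rgcc, the member with the smallest p, and Dll4 and Efnb2, arterial Notch-pathway genes with fold changes of opposite sign. Each is the 250 bases before the start site, 5′ to 3′ in the direction of the gene, from RefSeq on GRCm38.p6: Rgcc at chr14:79301636-79301885 on the minus strand, Dll4 at chr2:119325534-119325783 on the plus strand and Efnb2 at chr8:8661243-8661492 on the minus strand. Capitals mark matches on either strand to 4 motifs chosen after the sequences had been seen. They are the ETS-type core AGGAAG, the GC box, which reads GGGCGG, the hexamer known as the E-box, here CACGTG, and the TATA-type run TATAA.
Rgcc: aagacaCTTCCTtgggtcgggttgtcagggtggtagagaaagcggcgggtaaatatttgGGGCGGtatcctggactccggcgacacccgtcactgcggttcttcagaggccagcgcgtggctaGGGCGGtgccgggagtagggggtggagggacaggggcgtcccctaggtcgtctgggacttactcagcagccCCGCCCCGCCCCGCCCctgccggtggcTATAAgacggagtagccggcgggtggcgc
Dll4: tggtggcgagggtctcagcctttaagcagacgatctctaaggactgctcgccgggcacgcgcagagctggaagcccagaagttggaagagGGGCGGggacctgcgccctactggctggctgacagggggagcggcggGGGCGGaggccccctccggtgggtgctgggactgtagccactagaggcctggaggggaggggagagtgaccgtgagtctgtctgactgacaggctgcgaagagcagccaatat
Efnb2: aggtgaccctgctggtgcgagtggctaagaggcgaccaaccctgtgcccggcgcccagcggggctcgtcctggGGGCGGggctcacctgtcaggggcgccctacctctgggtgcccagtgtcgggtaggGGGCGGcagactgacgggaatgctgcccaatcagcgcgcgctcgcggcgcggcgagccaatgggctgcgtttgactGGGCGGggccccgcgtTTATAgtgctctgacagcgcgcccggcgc

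The Rgcc window held TATAA 29 bases before the start, 5 GGGCGG matches, of which the 3 nearest the start lie 5 bases apart and share letters, and 1 AGGAAG match at 244 bases on the opposite strand. The Dll4 window held 2 GGGCGG matches. The Efnb2 window held 3 GGGCGG matches and TATAA on the opposite strand at 29 bases. None of the 3 held CACGTG. Across all 32851 promoter windows of this length, AGGAAG was found in 29.5%, GGGCGG in 32.7%, CACGTG in 6.02% and TATAA in 22.8%. Of the 36 genes 25 matched the promoter table, with 32 start sites, and these motifs were found in 14, 17, 2 and 10 of the 32, in the same order. The matches are letters in a window, not sites at which a factor was measured.

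Rgcc, which encodes a regulator of the cell cycle that is abundant in capillary endothelium, had the largest positive fold change among the members. It lies on chromosome 14 from 79526196 to 79539085 on the minus strand (GRCm39) and had 1412 to 3049 counts per library. Rgcc measured 54.4, 79.5, 58.2, 65.2 and 75.9 CPM in injured-sire hearts, against 52.3, 48.2, 38.4, 45.3, 53.1 and 45.8 CPM in uninjured-sire hearts. The lowest injured-sire heart was just above the highest uninjured-sire heart, so the groups did not overlap but nearly touched. The means were 66.6 ± 10.9 CPM in injured-sire hearts (SD, n = 5) and 47.2 ± 5.37 CPM in uninjured-sire hearts (SD, n = 6), and the fitted log2 fold change was 0.50 ± 0.101 (SE; 95% confidence interval 0.28 to 0.71) with an edgeR adjusted p of 0.0761. Replicate 16 measured 81.9 CPM, above every other heart, and with it the log2 fold change was 0.55 with an edgeR adjusted p of 0.0542.

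The call on Rgcc depended on single hearts and on the test. Without injured-sire replicate 12, its lowest injured-sire value, the edgeR adjusted p was 0.0213 (0.16% of genes called), and without uninjured-sire replicate 22, its highest uninjured-sire value, it was 0.0435 (0.254% called). Leaving out any other single heart gave an edgeR adjusted p of 0.0792 to 0.186, so Rgcc did not pass. The DESeq2 Wald test gave an adjusted p of 0.000589. With the fat and airway marker scores as covariates the log2 fold change was 0.45 and the edgeR adjusted p 0.277. With 1 surrogate variable they were 0.47 and 0.239. A covariate of sex-linked genes gave a log2 fold change of 0.51 and an edgeR adjusted p of 0.107. Among the libraries with airway transcripts the injured-sire hearts held 54.4 to 79.5 CPM of Rgcc, against 52.3 and 45.3 CPM in uninjured-sire replicates 18 and 21. Among those nearly without them, replicate 16 held 81.9 CPM, against 38.4 to 53.1 CPM in the other four uninjured-sire hearts. This split was made after seeing the values and leaves a single injured-sire heart, the one outside the comparison, on one side, so it compares no groups there.

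Vwf encodes von Willebrand factor, the clotting glycoprotein stored in endothelial granules, which in the heart is strongest in larger vessels and the endocardium. It lies on chromosome 6 from 125523737 to 125663642 on the plus strand. Vwf measured 155, 130, 145, 127 and 162 CPM in injured-sire hearts, against 108, 124, 126, 110, 117 and 121 CPM in uninjured-sire hearts. The lowest injured-sire heart stood only slightly above the highest uninjured-sire heart. The means were 144 ± 15.5 CPM in injured-sire hearts (SD, n = 5) and 118 ± 7.49 CPM in uninjured-sire hearts (SD, n = 6), and the fitted log2 fold change was 0.29 ± 0.0669 (SE; 95% confidence interval 0.15 to 0.43) with an edgeR adjusted p of 0.101.

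Replicate 16 held 109 CPM of Vwf, among the lowest of all hearts, and with it in the comparison the log2 fold change was 0.23 with an edgeR adjusted p of 0.408. Among libraries with airway transcripts, injured-sire hearts held 127 to 162 CPM of Vwf, against 108 and 110 CPM in uninjured-sire replicates 18 and 21. Among those nearly without them, replicate 16 held 109 CPM, against 117 to 126 CPM in the other four uninjured-sire hearts, and no order between groups can be read from that single heart. With the fat and airway scores as covariates Vwf passed, at a log2 fold change of 0.41 and an edgeR adjusted p of 0.0118 (0.0992% of genes called), and with 1 surrogate variable at 0.41 and an edgeR adjusted p of 0.00223 (0.123% called). A covariate of sex-linked genes gave a log2 fold change of 0.27 and an edgeR adjusted p of 0.206, so Vwf did not pass. Leaving out any single compared heart gave an edgeR adjusted p of 0.067 to 0.211 for Vwf, so it did not pass there. The DESeq2 Wald test gave an adjusted p of 0.0124. Rgcc and Vwf thus had opposite values in replicate 16, the highest heart for one and near the lowest for the other.

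**Figure D2:**
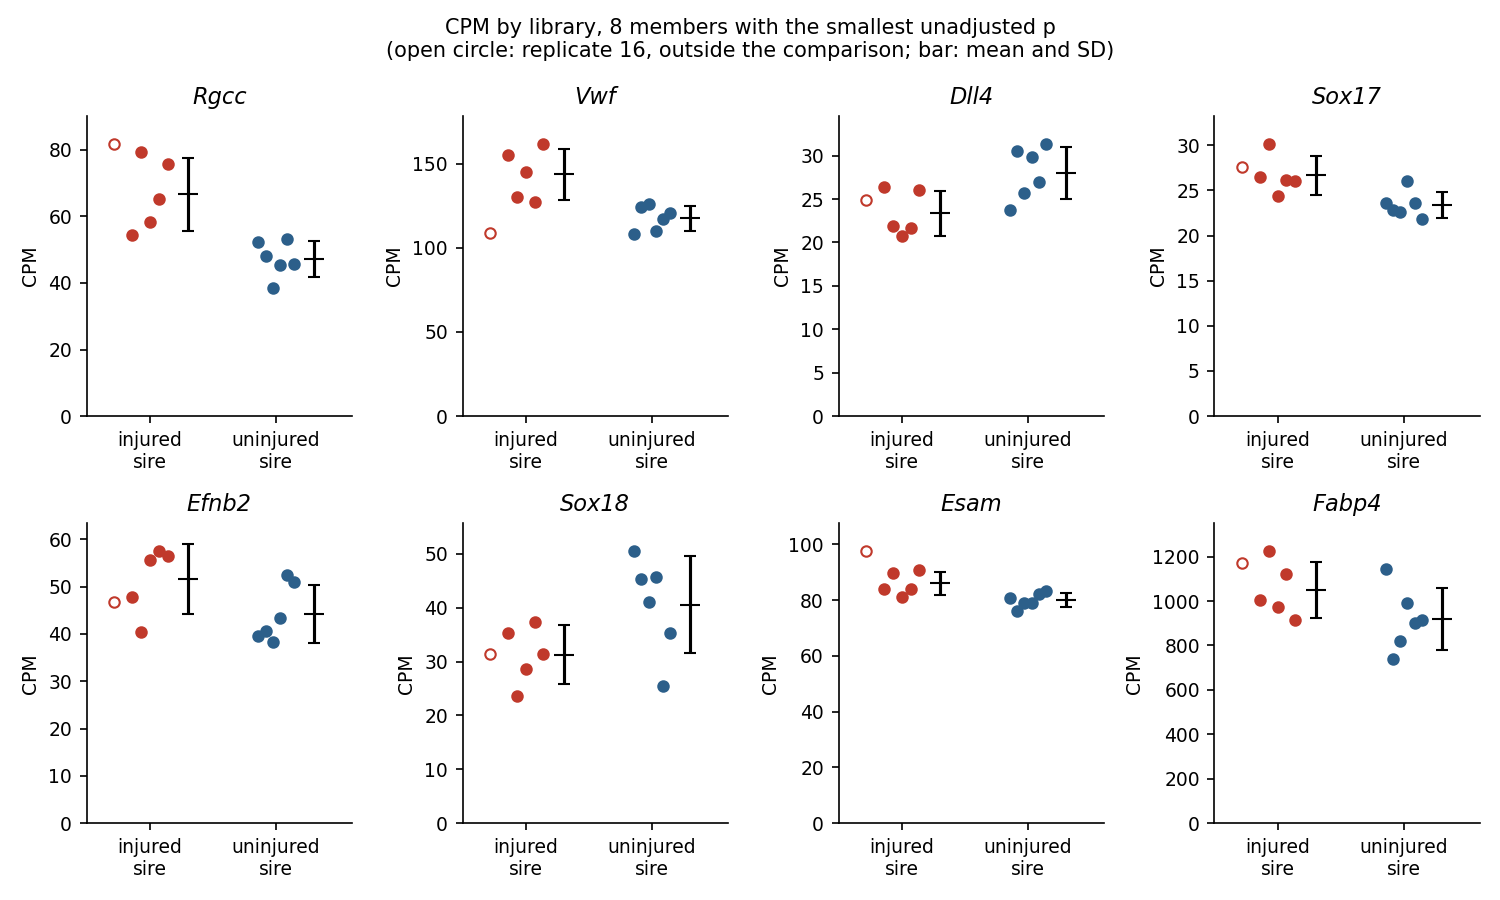
CPM of the 8 genes with the smallest unadjusted p, one point per library (red: injured sire; blue: uninjured sire; open red circle: replicate 16, outside the comparison), with the mean and SD of 5 and 6 libraries; axes start at 0. The groups separate for Rgcc and Vwf, and overlap for the other 6; replicate 16 is the highest point for Rgcc (81.9 CPM) and sits among the uninjured-sire points for Vwf (109 CPM).

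The genes that define endothelial cells at large were nearly equal. Pecam1, the junctional adhesion molecule CD31, measured 285, 273, 245, 252 and 284 CPM in injured-sire hearts, against 283, 273, 268, 242, 274 and 268 CPM in uninjured-sire hearts. Cdh5, VE-cadherin of the endothelial junction, measured 331, 296, 317, 288 and 307 CPM in injured-sire hearts, against 316, 301, 294, 303, 297 and 325 CPM in uninjured-sire hearts. Their log2 fold changes were -0.0017 ± 0.0558 for Pecam1 (SE; 95% confidence interval -0.12 to 0.11) and 0.0089 ± 0.0508 for Cdh5 (-0.10 to 0.11). The groups overlapped across nearly their whole ranges, and the intervals bound any difference in these genes to about 0.12 on the log2 scale in either direction.

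Rgcc and Vwf were also set against Pecam1 within each library, in ratios chosen after the values had been seen. The Rgcc to Pecam1 ratio was 0.191 to 0.291 in injured-sire hearts, mean 0.249 ± 0.0378 (SD, n = 5), against 0.143 to 0.194 in uninjured-sire hearts, mean 0.176 ± 0.0179 (SD, n = 6). Injured-sire replicate 12, at 0.191, fell inside the uninjured-sire range. The Vwf to Pecam1 ratio was 0.475 to 0.591 in injured-sire hearts, mean 0.537 ± 0.0481 (SD, n = 5), against 0.382 to 0.471 in uninjured-sire hearts, mean 0.44 ± 0.0318 (SD, n = 6), with no overlap. Replicate 16 stood at 0.301 for Rgcc, above all other hearts, and at 0.399 for Vwf, within the uninjured-sire range. Against Cdh5 the Rgcc groups again overlapped and the Vwf groups did not: the Rgcc ratio ran from 0.164 to 0.268 in injured-sire and 0.131 to 0.179 in uninjured-sire hearts, and the Vwf ratio from 0.438 to 0.529 in injured-sire and 0.342 to 0.43 in uninjured-sire hearts.

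**Figure D3:**
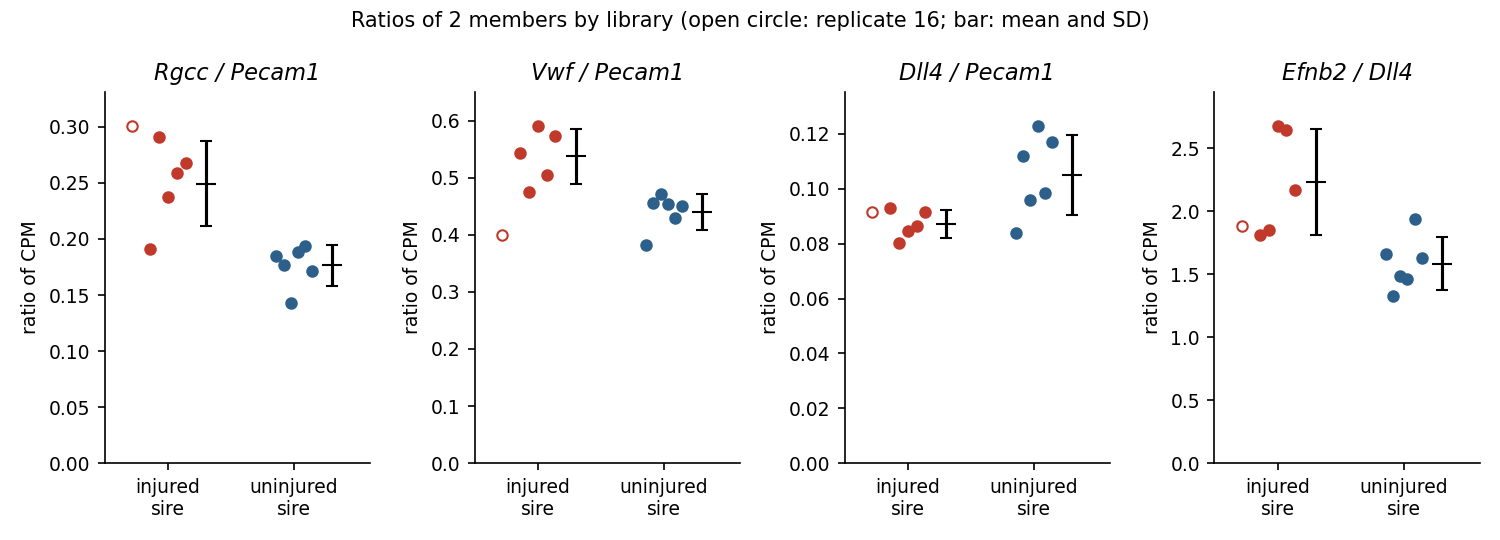
Ratio of the CPM of 2 genes within each library (red: injured sire; blue: uninjured sire; open red circle: replicate 16), with the mean and SD of 5 and 6 libraries; axes start at 0. Vwf over Pecam1 separates the groups (0.475 to 0.591 in injured-sire against 0.382 to 0.471 in uninjured-sire hearts), while Rgcc over Pecam1, Dll4 over Pecam1 and Efnb2 over Dll4 overlap.

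The VEGF and angiopoietin receptors did not pass the test, and their fold changes were small. Kdr, VEGFR2, the main signalling receptor for VEGF-A, measured 221, 163, 192, 179 and 173 CPM in injured-sire hearts, against 202, 179, 195, 224, 163 and 221 CPM in uninjured-sire hearts. Its log2 fold change was -0.09 ± 0.0857 (SE), and the groups spanned almost the same range. Flt1, VEGFR1, a receptor that binds VEGF with little signalling, had 0.03, and Tek, the angiopoietin receptor TIE2, and its partner Tie1 each had -0.04.

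Transcription factors of the endothelium included the member with the most negative fold change outside the lymphatic group. Sox18, a SOX-F factor of developing vessels, measured 35.4, 23.6, 28.7, 37.4 and 31.4 CPM in injured-sire hearts, against 50.6, 45.3, 41.1, 45.7, 25.4 and 35.4 CPM in uninjured-sire hearts. All 5 injured-sire hearts were below the uninjured-sire median of 43.2 CPM, but uninjured-sire replicates 22 and 23 fell among them. The log2 fold change was -0.37 ± 0.177 (SE) with an edgeR adjusted p of 0.578. Erg, an ETS factor that maintains endothelial identity, had 0.05.

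Genes of lipid uptake, transport and the capillary surface overlapped between the groups. Fabp4, the fatty acid binding protein of both capillaries and fat cells, measured 1004, 1227, 973, 1123 and 917 CPM in injured-sire hearts, against 1144, 741, 822, 993, 900 and 914 CPM in uninjured-sire hearts. All 5 injured-sire hearts exceeded the uninjured-sire median of 907 CPM, yet the ranges overlapped, and the log2 fold change was 0.19 ± 0.107 (SE) with an edgeR adjusted p of 0.648. Fabp4 moved with the 7 fat markers across the 11 hearts (Pearson's r = 0.75, permutation p = 0.00595, adjusted 0.0178; Spearman's rho = 0.81, permutation p = 0.00402, adjusted 0.0241; 6 relations tested). Without the 2 hearts farthest from the median of fat markers r was 0.59 (exact permutation p = 0.0909, n = 9), over a narrower range of fat markers. With the fat and airway scores as covariates its log2 fold change was -0.01.

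Esam, an adhesion molecule of endothelial junctions, measured 83.9, 89.7, 81.2, 84 and 90.9 CPM in injured-sire hearts, against 80.9, 76.1, 79, 79, 82 and 83.1 CPM in uninjured-sire hearts. All 5 injured-sire hearts were above the uninjured-sire median of 80 CPM, the ranges overlapped, and the log2 fold change of 0.10 ± 0.0523 (SE) had an edgeR adjusted p of 0.578. Cldn5, the tight junction claudin of endothelium, spread most among the general genes, from 42.7 to 84.8 CPM in injured-sire hearts, against 37.9 to 100 CPM in uninjured-sire hearts, with 117 CPM in replicate 16; its log2 fold change was 0.04. Cav1, caveolin of the endothelial caveolae, had a log2 fold change of -0.0083, and Aqp1, a water channel of capillaries and red cells, -0.08. Neither Cav1 with fat markers (Pearson's r = 0.35, permutation p = 0.294, adjusted 0.587; Spearman's rho = 0.45, permutation p = 0.172, adjusted 0.345) nor Aqp1 with erythroid markers (Pearson's r = 0.25, permutation p = 0.447, adjusted 0.67; Spearman's rho = 0.31, permutation p = 0.356, adjusted 0.534) gave a relation that passed, and without the 2 farthest hearts r was 0.19 for Cav1 and 0.03 for Aqp1. Erythroid markers summed to 2223 to 2947 CPM in injured-sire and 2510 to 3530 CPM in uninjured-sire hearts.

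The remaining general genes had log2 fold changes of 0.05 for Eng, the TGF-beta co-receptor endoglin, 0.05 for Emcn, the capillary and venous sialomucin endomucin, and 0.02 for Egfl7, a secreted endothelial matrix protein. Robo4, an endothelial guidance receptor, had -0.04, Ly6c1, a surface antigen of mouse capillaries, -0.07, and Plvap, the diaphragm protein of fenestrated vessels, -0.10. Ly6c1 is uncertain, since reads that map equally to a near-identical copy were not counted. Egfl7 and Plvap each share their span with a gene on the other strand that held 45.3% and 59.3% as many counts, in that order, and counting used strand. Taking the 21 general genes as a group, 11 were higher and 10 lower, 16 lay within 0.1 of zero and the median log2 fold change was 0.0089. Of these, 2 were higher at an unadjusted p below 0.05, beside 4.28% of all genes tested. Their summed level was 3910 to 4223 CPM in injured-sire hearts and 3780 to 4297 CPM in uninjured-sire hearts.

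The arterial genes pointed in both directions. Of the 6, none was called, 5 had positive log2 fold changes and Dll4 a negative one, and the median was 0.16, against 0.00019 over all genes; with 1 surrogate variable the median was 0.08. Dll4, the Notch ligand of arterial and tip cells, lies on chromosome 2 from 119156265 to 119166443 on the plus strand. It measured 26.4, 21.9, 20.8, 21.7 and 26 CPM in injured-sire hearts, against 23.8, 30.5, 25.7, 29.8, 27 and 31.4 CPM in uninjured-sire hearts. All 5 injured-sire hearts were below the uninjured-sire median of 28.4 CPM, and uninjured-sire replicates 18 and 20 fell within the injured-sire range. The log2 fold change was -0.26 ± 0.0876 (SE; 95% confidence interval -0.44 to -0.08) with an edgeR adjusted p of 0.319.

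Efnb2, ephrin-B2, the arterial ligand of the venous receptor EphB4, lies on chromosome 8 from 8667434 to 8711242 on the minus strand. It measured 47.9, 40.4, 55.7, 57.6 and 56.4 CPM in injured-sire hearts, against 39.5, 40.6, 38.2, 43.4, 52.5 and 51 CPM in uninjured-sire hearts. The 3 highest injured-sire hearts exceeded every uninjured-sire heart, while replicate 13 stood among the lowest, and the log2 fold change was 0.22 ± 0.102 (SE) with an edgeR adjusted p of 0.531. Efnb2 over Dll4 was 2.23 ± 0.42 in injured-sire hearts (SD, n = 5) and 1.58 ± 0.213 in uninjured-sire hearts (SD, n = 6), and the ranges of 1.81 to 2.68 in injured-sire and 1.33 to 1.94 in uninjured-sire hearts overlapped.

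Sox17, the SOX-F factor of arterial identity, lies on chromosome 1 from 4561154 to 4567577 on the minus strand. It measured 26.5, 30.2, 24.4, 26.2 and 26 CPM in injured-sire hearts, against 23.6, 22.8, 22.6, 26, 23.6 and 21.8 CPM in uninjured-sire hearts. All 5 injured-sire hearts were above the uninjured-sire median of 23.2 CPM, and only uninjured-sire replicate 21 reached into their range. The log2 fold change was 0.19 ± 0.0731 (SE) with an edgeR adjusted p of 0.408, a sign opposite to that of its relative Sox18.

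Gja4, the arterial gap junction protein connexin 37, measured 18.9, 17.3, 13.3, 15.2 and 13.8 CPM in injured-sire hearts, against 20.2, 16.1, 13.8, 14.9, 10.5 and 17 CPM in uninjured-sire hearts. The uninjured-sire range enclosed the injured-sire one, and the log2 fold change was 0.03 ± 0.136 (SE). Sema3g, a semaphorin of arterial endothelium, had a log2 fold change of 0.17, and Hey1, a transcriptional repressor that Notch induces, 0.15. The 6 arterial genes summed to 161 to 186 CPM in injured-sire hearts and 147 to 171 CPM in uninjured-sire hearts.

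Markers of smooth muscle, the wall of arteries, were higher in the same hearts. All 5 (Acta2, Myh11, Tagln, Cnn1 and Mylk) had an unadjusted p below 0.05 with positive log2 fold changes of 0.27 to 0.69, and none was called. Of all genes tested, 4.28% were higher at that p. The sum of the 5 was 960 to 1076 CPM in injured-sire hearts, against 571 to 895 CPM in uninjured-sire hearts. The sums did not overlap, but the groups overlapped for each of the 5 markers alone. Replicate 16 held a sum of 906 CPM. None of the 5 was at 0 in any heart. Pericyte markers, of cells that wrap capillaries, summed to 1142 to 1357 CPM in injured-sire and 1066 to 1323 CPM in uninjured-sire hearts. The part of smooth muscle content in the values of the arterial genes, Vwf and Rgcc was not tested.

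**Figure D4:**
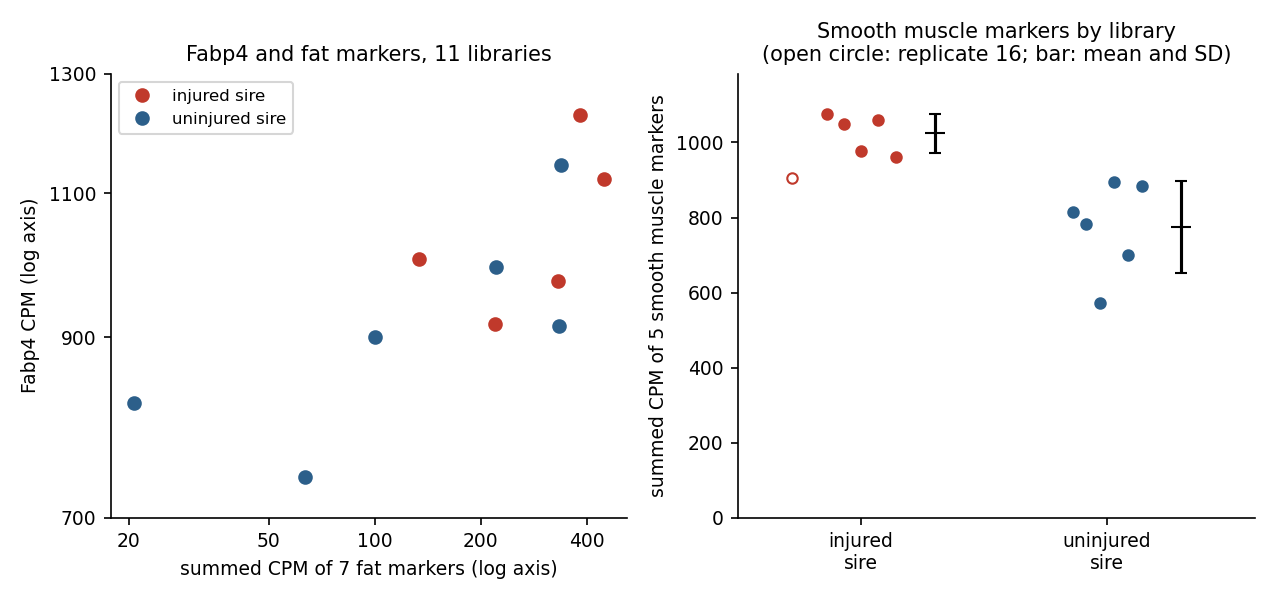
Left, Fabp4 CPM against the summed CPM of 7 fat markers in the 11 compared hearts, both on log axes (red: injured sire; blue: uninjured sire). Right, the summed CPM of 5 smooth muscle markers by library with mean and SD and replicate 16 as an open circle: 960 to 1076 in injured-sire hearts, all above the 571 to 895 of uninjured-sire hearts. Each of the 5 markers alone overlapped between the groups.

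None of the 7 lymphatic genes was called: 6 had negative log2 fold changes and 1 a positive one, none had an unadjusted p below 0.05, and the median was -0.08. Prox1, the master transcription factor of lymphatic endothelium, measured 85, 76.3, 97.3, 85.7 and 64.3 CPM in injured-sire hearts, against 82, 76.7, 90.6, 81.4, 95.9 and 91 CPM in uninjured-sire hearts. Injured-sire hearts held both the lowest and the highest value, and the log2 fold change was -0.08 ± 0.0859 (SE). Heart muscle cells also express Prox1, and across the 11 hearts it ran against the sum of 7 cardiomyocyte markers (Pearson's r = -0.79, permutation p = 0.00402, adjusted 0.0178; Spearman's rho = -0.58, permutation p = 0.065, adjusted 0.195). Without the 2 hearts farthest from the median of those markers r was -0.45 (exact permutation p = 0.219, n = 9), over a narrower range of those markers. Myh6 made up the largest part of that sum, and the relation of Prox1 to each marker alone was not tested.

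Lyve1, a hyaluronan receptor of lymphatic vessels and of some resident macrophages, measured 32.8, 36, 31.3, 32.3 and 36.1 CPM in injured-sire hearts, against 40.3, 44.2, 35.8, 27.6, 28.1 and 33.2 CPM in uninjured-sire hearts. The injured-sire values lay inside the wider uninjured-sire range, and the log2 fold change was -0.05 ± 0.106 (SE). Flt4, VEGFR3, the receptor for VEGF-C, measured 21, 19.8, 24.1, 21.1 and 25.2 CPM in injured-sire hearts, against 24.7, 25.2, 22.1, 21.7, 21.4 and 26 CPM in uninjured-sire hearts. The ranges overlapped in part, 3 injured-sire hearts lay below every uninjured-sire heart, and the log2 fold change was -0.08 ± 0.083 (SE).

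Pdpn, podoplanin of lymphatic and mesothelial cells, had a log2 fold change of -0.12, Mmrn1, a secreted multimerin, -0.05, and Reln, the matrix protein reelin, 0.14, with all 5 injured-sire hearts above the uninjured-sire median of 7.3 CPM for Reln. Ccl21a, a chemokine that guides dendritic cells into lymph vessels, was the most variable member, at 5.71 to 15 CPM in injured-sire hearts, against 6.56 to 22.6 CPM in uninjured-sire hearts. Its log2 fold change was -0.42 ± 0.367 (SE; 95% confidence interval -1.25 to 0.40). The gene has near-identical copies, and reads shared among them were not counted, so its level is uncertain. Neither Lyve1 with macrophage markers (Pearson's r = 0.11, permutation p = 0.748, adjusted 0.748; Spearman's rho = 0.05, permutation p = 0.881, adjusted 0.881) nor Pdpn with mesothelial markers (Pearson's r = 0.14, permutation p = 0.68, adjusted 0.748; Spearman's rho = 0.22, permutation p = 0.52, adjusted 0.624) showed a relation across the hearts that passed. Without the 2 farthest hearts r was 0.29 for Lyve1 and 0.45 for Pdpn.

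Of the endocardial pair, Cytl1, a secreted cytokine-like protein, measured 19.1, 22.4, 19.5, 25.8 and 20.2 CPM in injured-sire hearts, against 20.5, 20.4, 19.5, 20.3, 19.7 and 19.1 CPM in uninjured-sire hearts. The uninjured-sire hearts lay within a narrow band, and injured-sire replicates 13 and 15 stood above it. The log2 fold change was 0.10 ± 0.0825 (SE) with an edgeR adjusted p of 0.782. Nfatc1, the transcription factor of endocardium and valves, measured 25.6, 19.5, 25.2, 25.2 and 30.1 CPM in injured-sire hearts, against 25.1, 28.2, 21.3, 23.1, 25.7 and 26.5 CPM in uninjured-sire hearts. The injured-sire range enclosed the uninjured-sire one, with a log2 fold change of 0.0093 ± 0.0947 (SE).

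Per length, in FPKM (CPM divided by the counted length in kilobases), the 36 genes spanned from 0.316 for Reln to 215 for Aqp1 in uninjured-sire hearts. Next to Aqp1 came Fabp4 at 205, Cav1 at 90.4, Cdh5 at 72.8, Ly6c1 at 68.6, Eng at 60.3 and Rgcc at 51.4 FPKM in those hearts. Pecam1 stood at 43, Kdr at 21.9 and Vwf at 7.33 FPKM. The arterial genes ran from 4.72 (Hey1) to 9.14 (Gja4) FPKM, the lymphatic genes from 0.316 (Reln) to 13.7 (Ccl21a) FPKM, and the endocardial pair stood at 18.9 (Cytl1) and 3.34 (Nfatc1) FPKM. Of the 35 pairs of neighbours in this order, 27 overlapped across the 6 uninjured-sire libraries. In injured-sire hearts Rgcc averaged 72.6 FPKM and Vwf 8.95 FPKM. The coefficient of variation within groups was under 10% for 14 of the 36 genes, with a median of 11.3%.

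**Figure D5:**
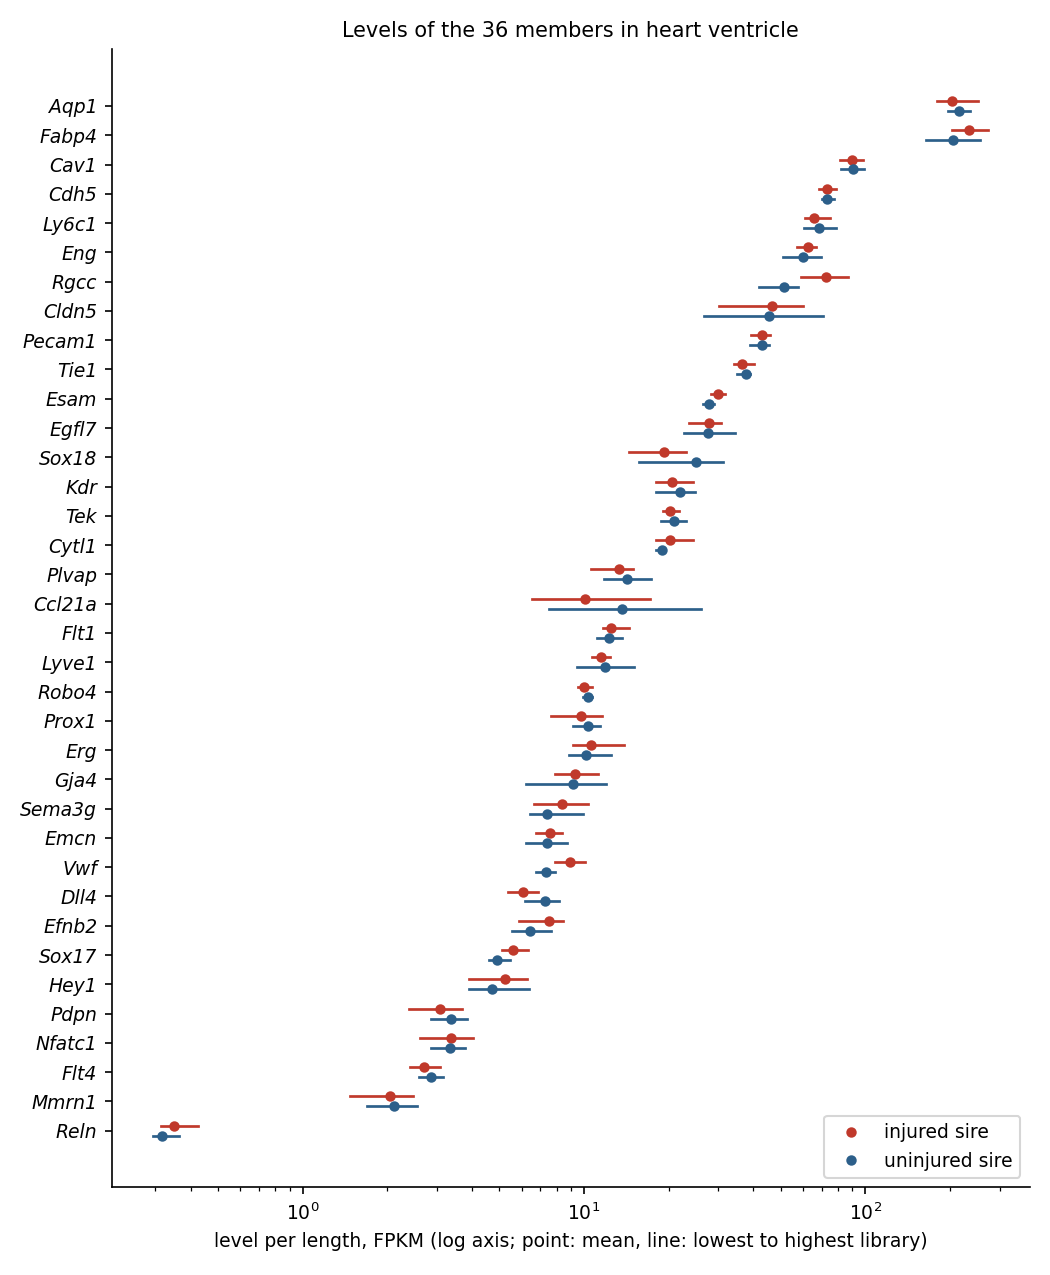
Level per length (FPKM, log axis) of the 36 genes, ordered by their mean in uninjured-sire hearts; points are means of 5 injured-sire (red) and 6 uninjured-sire (blue) hearts and lines run from the lowest to the highest heart. Levels run from 0.316 FPKM for Reln to 215 FPKM for Aqp1, and the red and blue lines overlap for all genes but Rgcc and Vwf.

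Other genes of the same pathways, 66 in all and 65 of them tested, gave no call: 35 were higher and 30 lower, 5 and 7 of these at an unadjusted p below 0.05, and 2, Aplnr and Jag1, did not overlap between the groups, both lower. Of all genes tested, 4.28% were higher and 4.68% lower at that p, and 0.625% were lower without overlap. Aplnr, the apelin receptor of venous and sprouting endothelium, measured 23.5 to 40 CPM in injured-sire hearts, against 41.6 to 62.9 CPM in uninjured-sire hearts, a log2 fold change of -0.68 ± 0.15 (SE) with an edgeR adjusted p of 0.169. Replicate 16, outside the comparison, held 45.2 CPM of Aplnr, inside the uninjured-sire range, so with it the groups overlapped. Among the 15 VEGF and angiopoietin genes the next by p were Ptprb, the endothelial phosphatase of TIE2, at 0.16, and the lymphatic growth factor Vegfd, at 0.39. Jag1, a Notch ligand that opposes Dll4 in sprouting vessels, measured 14.3 to 19.3 CPM in injured-sire hearts, against 19.7 to 27.3 CPM in uninjured-sire hearts, a log2 fold change of -0.35 ± 0.0956 (SE) with an edgeR adjusted p of 0.189. For Jag1 replicate 16 held 16.1 CPM, below the uninjured-sire range. Of the 12 Notch and ephrin genes, the arterial kinase Bmx followed by p at 0.41 and the ligand Dll1 at -0.30. Of these 12, 1 was higher and 2 lower at an unadjusted p below 0.05.

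Among 20 other endothelial genes, 2 were higher and 4 lower at an unadjusted p below 0.05, beside 4.28% and 4.68% of all genes tested. S1pr1, a sphingosine phosphate receptor that stabilises vessels, measured 141 to 148 CPM in injured-sire hearts, against 111 to 146 CPM in uninjured-sire hearts, a log2 fold change of 0.23 ± 0.0611 (SE) with an edgeR adjusted p of 0.183. Thbd, the anticoagulant thrombomodulin, and the transcription factor Ets1 each had -0.20. Of the 5 other endocardial genes Npr3, a natriuretic peptide clearance receptor, measured 60.2 to 74.8 CPM in injured-sire hearts, against 49.3 to 65.7 CPM in uninjured-sire hearts, a log2 fold change of 0.28 ± 0.0779 (SE) with an edgeR adjusted p of 0.206, while Plxnd1 had -0.12 and Hapln1 0.18.

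Venous and activation genes, 6 in all, had a median log2 fold change of 0.19 and none had an unadjusted p below 0.05. The adhesion receptors Sele and Selp and the venule receptor Ackr1 had log2 fold changes of 0.67, 0.34 and 0.59, in that order, at means of at most 1.69 CPM in either group. The other lymphatic genes, 7 tested of 8, had a median of 0.12 with none at an unadjusted p below 0.05: Fxyd6 stood at -0.12, Klhl4 at 0.23 and Foxc2, a transcription factor of lymphatic valves, at 0.29.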

How the data were processed

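RNA from 12 heart ventricles was counted per gene. The deposited values are unnormalized read counts for each Ensembl gene, which the authors produced with featureCounts 2.1.1 (strand setting 2, paired-end and multi-mapping options unset) on Ensembl release 114, build GRCm39; this is per the file headers. STAR 2.7.10a and Subread 2.0.3 stand in the submitters' processing notes, the second at odds with the header's version. Reads shared by near-identical genes therefore went uncounted. Another 11 sample columns were not used. Of 78317 gene IDs, 51487 were matched to symbols of GENCODE M21, used for names only.

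In R 4.3.3, the two-sided quasi-likelihood F test of edgeR 4.0.16 (robust setting) was run on TMM-scaled counts after filterByExpr with a minimum count of 10 and a minimum total of 15; p-values were adjusted over all genes by Benjamini-Hochberg, at 0.05. SEs come from the F statistic. CPM are counts scaled to 1000000 with TMM factors of all 12 libraries, and FPKM are these CPM divided by the file's gene length in kilobases. Correlations used 100000 resamples on log2 CPM of the gene and of the summed markers over 11 hearts, or exact enumeration with 9 hearts. The test was checked on simulated counts. It called 9 of 50 genes changed 1.25-fold, 24 of 50 changed 1.5-fold, 37 of 50 changed 2-fold and 39 of 50 changed 3-fold. There were 5 false calls. Most genes changed 1.25-fold were thus missed. The changed genes were drawn at random from all genes tested, not from the members. Most members had fold changes smaller than 1.25-fold, the smallest simulated, so the check gives no rate for them. No replicate number occurs in both groups, and no 2 libraries of a group agreed within counting noise.

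The members, lists, tests and naming rule were chosen with earlier results of these data known. Values by library are given for Rgcc, Vwf, the 8 members with the smallest p and 1 to 3 defining members per group, and of each other pathway list the 3 genes with the smallest p are named. Alternatives were all 12 libraries, each library left out, DESeq2 1.42.0 size factors and Wald test, no scaling or upper-quartile factors, limma 3.58.1 voom with quality weights, no filter, 1 CPM in at least 5 libraries, a sex-linked covariate, 1 surrogate variable (sva 3.50.0), fat and airway scores, and a threshold of 0.1.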

Additional observations from a re-analysis of the deposited data

Results flagged for a closer look

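In 5 of the 72 groups of hearts examined (36 genes, 2 groups each), 1 heart stood apart from the rest by the gap between it and its nearest neighbour. This gap flags about 1 in 20 groups by chance, and the 5 make 6.94% of those examined. Erg, an ETS factor, measured 48.3 CPM in injured-sire replicate 12, against 31.7 to 35.6 CPM in the other injured-sire hearts. Reln measured 10.1 CPM in injured-sire replicate 17, against 7.42 to 8.15 CPM in the others of that group. Among uninjured-sire hearts, Pecam1 measured 242 CPM in replicate 21 (268 to 283 CPM in the others), Tie1 measured 173 CPM in replicate 19 (185 to 192 CPM) and Sema3g measured 44.9 CPM in replicate 22 (29.1 to 34.3 CPM). None of these hearts stood apart in more than 1 of the 36 genes.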

How the results depend on the processing

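Over 22 alternatives, 783 of 792 fold changes of single members were counted as keeping their direction and their side of the threshold. A change of sign was counted only where the fold change in the main comparison exceeded its SE. Some smaller ones changed sign uncounted, such as Gja4, at 0.03 in the main comparison and -0.12 with fat and airway covariates. The other 9 were 4 of Rgcc and 4 of Vwf that passed, in 6 alternatives between them, and 1 of Fabp4, which turned to -0.01 with fat and airway covariates. No member was called in the main comparison. Leaving out each heart gave 0 to 1 member called and 8 to 43 genes in all, against 18: 28 without injured-sire replicate 12, 8 without 13 and 9 without 14, and 43 without uninjured-sire replicate 22 and 9 without 23. The DESeq2 Wald test called 134 genes and 2 members, and no filter called 236 genes and the same 2 members, Rgcc and Vwf. A filter of 1 CPM called 28 genes, and a threshold of 0.1 called 49 genes and 1 member, Rgcc. With 1 surrogate variable or with fat and airway covariates 1 member was called, Vwf, and the arterial median was 0.08 and 0.09, in that order, against 0.16. The causes were not tested. Rgcc ranged from 0.43 to 0.56 on the log2 scale and Vwf from 0.23 to 0.41 over these alternatives. The scalings moved the median of all genes to between -0.0089 and 0.02. No paired analysis was possible because the groups share no replicate number. Members had 95% confidence intervals with a median half-width of 0.181 (log2), not adjusted for the number of genes tested.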
